A study of Homo sapiens with 9 samples.

Results

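The genes described here are the mitochondrial enzymes and the carrier through which folate-bound carbon is turned into formate or kept in the mitochondrion: SHMT2, MTHFD2, MTHFD2L, MTHFD1L, ALDH1L2, SLC25A32, MTFMT, GLDC, AMT and DMGDH. They were chosen by name and matched by Ensembl identifier. All 10 were found among the 23727 genes of the count table, and 8 had enough counts to be tested. AMT and DMGDH did not. RNA sequencing was carried out on LN229, an established human glioblastoma line cultured with glucose at 17 mM, glutamine at 2 mM and fetal bovine serum at 10%. The 3 groups were untreated cells at 0 h, cells given 500 µM sodium formate for 8 h and cells given the same dose for 24 h, with 3 libraries in each and no genetic change named in the labels. There was no untreated group at 8 h or 24 h, so time in culture and formate cannot be told apart. The labels do not say whether the replicates were separate cultures, and the p-values therefore measure only the spread between these libraries.

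Mitochondria take carbon from serine and hand it to tetrahydrofolate. SHMT2 performs this first step, MTHFD2 or MTHFD2L oxidises the carried group to the formyl level, and MTHFD1L releases it as formate, which leaves for the cytosol to serve purine and thymidylate synthesis. ALDH1L2 competes for the same formyl-folate by oxidising it to carbon dioxide with the formation of NADPH, and MTFMT uses it to formylate the initiator methionyl-tRNA. GLDC and AMT belong to the glycine cleavage system, DMGDH takes a carbon unit from dimethylglycine, and SLC25A32 carries folate into the mitochondrion. MTHFD2 is known for its high expression in tumours and embryonic tissue and its low expression in most adult tissue, where MTHFD2L is found.

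ATF4, a transcription factor of the amino acid response, is known to raise several of these genes through the C/EBP-ATF response element, and MYC binds E-boxes in genes of one-carbon metabolism. RefSeq promoter windows (GRCh38.p14, 250 bases before to 50 bases after a start) were at hand for 6 of the 10 genes, MTHFD2, MTHFD2L, MTHFD1L, GLDC, AMT and DMGDH, in 10 windows. The response element was searched as TGATGNAAN and the E-box as CACGTG, both on both strands. The response element letters were found in 3.61% of all 35116 windows and the E-box letters in 7.26%. Among the windows of these genes both were found only in MTHFD1L, in 3 overlapping windows that hold the same 2 matches. The MTHFD1L match is shown because MTHFD1L is the member with the lowest fitted change at 24 h, and the stretch before MTHFD2 because MTHFD2 performs the step just before it. Capitals mark the response element match at chr6:150866357-150866365 inside the first sequence, and the other sequence holds neither motif.

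MTHFD1L response element match, chr6:150866347-150866376, plus strand: ccgccggctcTGATGCAATcgcgccgggcg
MTHFD2 upstream stretch, chr2:74198412-74198561, plus strand: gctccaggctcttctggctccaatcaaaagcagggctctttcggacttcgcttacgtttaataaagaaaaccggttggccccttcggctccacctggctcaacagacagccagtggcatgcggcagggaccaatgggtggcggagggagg

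The first sequence is 30 bases long and lies in an annotated MTHFD1L exon. Its match begins at offsets of 24, -90 and -129 bases from the 3 RefSeq starts whose windows hold it, with negative offsets before the start. The E-box match of MTHFD1L began 1 base before the first of these starts, at chr6:150866332-150866337. The MTHFD2 stretch is 150 bases long, 58% G or C, and ends 53 bases before the RefSeq start. A match to these letters describes the sequence and does not show that a factor binds there.

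SHMT2 was the most abundant member in every library. Levels between genes are compared as CPM per kb, that is library-scaled counts (CPM) with edgeR's TMM correction for library composition, and divided by the exon length in GENCODE release 29. SHMT2 (ENSG00000182199, chr12:57229327-57234935) had a mean level of 65.6 CPM per kb over the 9 libraries, between 53.5 and 89.1. MTHFD2 (ENSG00000065911, chr2:74198562-74217565) followed with a mean level of 25.4 and a range from 20.1 to 31.2 CPM per kb. MTHFD1L (ENSG00000120254, chr6:150865549-151101887) had a mean level of 15.8 CPM per kb, from 9.85 to 25.0. SHMT2 lay above MTHFD2 with no overlap of their ranges, whereas the ranges of MTHFD2 and MTHFD1L overlapped.

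The other members were far less abundant. MTFMT had a mean level of 3.87 CPM per kb and lay below MTHFD1L and above the remaining genes in all 9 libraries. GLDC, at 1.63 CPM per kb, and ALDH1L2 (ENSG00000136010, chr12:105019784-105084577), at 1.59, were not separated by their ranges. MTHFD2L (ENSG00000163738, chr4:74114174-74303099) had a level of 0.754 CPM per kb and overlapped the range of ALDH1L2. SLC25A32 had a level of 0.416 CPM per kb, also within reach of the range of MTHFD2L. DMGDH and AMT, at 0.0168 and 0.0145 CPM per kb, rested on a few counts, and SLC25A32 lay above both.

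**Figure D1:**
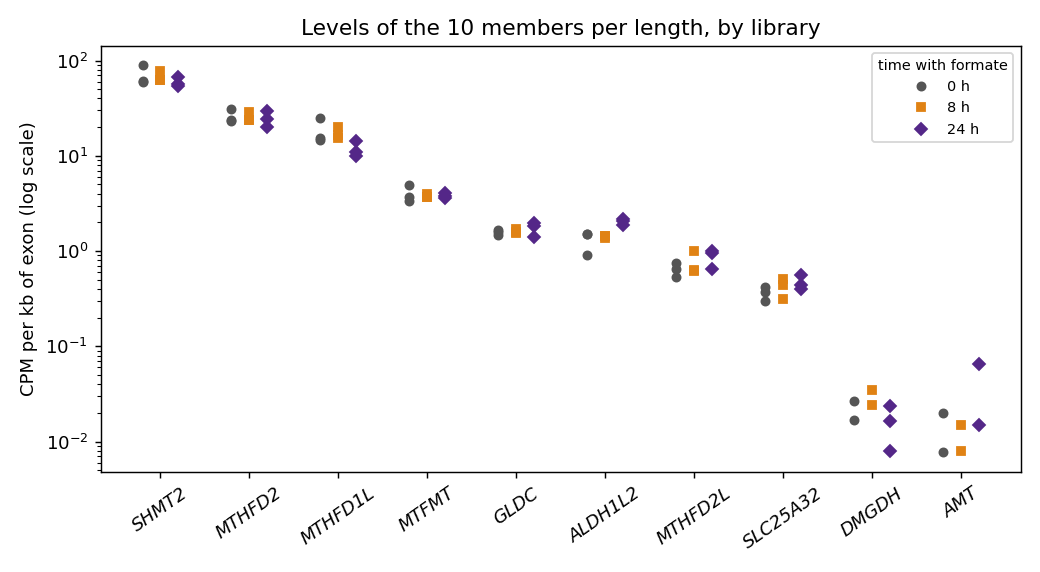
Level of each of the 10 genes in CPM per kb of exon (log scale), 1 point per library, grouped by hours with formate. SHMT2 lies highest in all groups, and the lowest points, of AMT and DMGDH, rest on a few counts; libraries with no count of these genes are not drawn.

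AMT had 0, 3 and 1 counts in the untreated libraries, 1, 0 and 2 at 8 h, and 0, 2 and 9 at 24 h. DMGDH had 3, 0 and 2 counts untreated, 4, 0 and 3 at 8 h, and 1, 2 and 3 at 24 h. Only 1 AMT library and 1 DMGDH library exceeded 3 counts, the limit that a count of 0 allows, so no fold change is given for either. SLC25A32 had between 23 and 48 counts per library, which limits the precision of its values. The annotation also bears on some counts. AMT shares 63.1% and SLC25A32 69.7% of exon bases with a read-through gene on the same strand that is not analysed here, so the counts of both are uncertain. MTHFD2 exons overlap genes on the opposite strand over 33.2% of their length, and the strand setting of the counting is not given in the sources used here. SLC25A32 has 11.1% and SHMT2 9.51% of such overlap. The pseudogenes MTHFD2P1 and MTHFD2P7 had 94 and 7 counts over the 9 libraries and GLDCP1 had 20, against at least 2356 counts of MTHFD2 and 295 of GLDC in each library.

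Library totals lay between 22222298 and 25848242 counts, and TMM factors between 0.920 and 1.06. Replicate 1 stood apart in every group, and most in the untreated one. The chi-square per degree of freedom between untreated replicate 1 and the other untreated libraries was 57.6 and 60.5, against 8.62 between the other 2. At 8 h the pairs with replicate 1 had 22.6 and 23.7, against 10.9 between replicates 2 and 3. At 24 h they had 13.9 and 24.5, against 8.86. No 2 libraries of the same group agreed within sampling noise. Values without untreated replicate 1 are given beside those of MTHFD1L, ALDH1L2, SHMT2 and several of the listed genes. The glial and glioma markers summed to between 5364 and 8636 CPM per library, with vimentin the largest part. Untreated means were 999 CPM for CD44, 948 for NES, 130 for S100B, 88.8 for EGFR, 80.0 for SOX2 and 8.31 for OLIG2. GFAP, the defining astrocyte filament, was at 0.233 ± 0.0842 CPM untreated (SD, n = 3). SOX9 at 0.759 and SLC1A3 at 1.22 CPM (18 to 43 counts) were also low untreated. ALDH1L1 had 2 counts over the 9 libraries, and AQP4 was not found in the count table. Immune markers summed to at most 0.619, endothelial to at most 1.87 and epithelial to at most 7.68 CPM. The endothelial sum lay between 0.424 and 0.707 CPM untreated and between 1.16 and 1.87 CPM at 24 h. Most of it was VWF, the only endothelial marker with a test, with means of 0.424 and 1.28 CPM. Of 9 tested glial and glioma markers, 2 rose (S100B 2.61-fold, SLC1A3 2.99-fold) and 0 fell at 24 h against 0 h by edgeR, where 4.25% of all genes passed. With the replicate number as a block 3 rose and 2 fell. The part of these shifts in the results was not tested.

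At 24 h the transcripts of the formate-releasing enzyme and of the enzyme that competes for formyl-folate lay on opposite sides of their untreated levels. MTHFD1L, which releases formate, was lower and ALDH1L2, which consumes formyl-folate, was higher in all 3 same-numbered pairs. These were the only 2 of the 8 tested members whose libraries did not overlap between 24 h and 0 h, against 30.3% of all tested genes. Neither passed the threshold in the test without the replicate number. In cells in bulk, fewer cells that express a gene and less RNA per cell cannot be told apart.

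MTHFD1L stood at 125, 77.5 and 73.6 CPM in untreated replicates 1, 2 and 3. At 8 h it stood at 102, 82.2 and 77.5 CPM, and at 24 h at 71.6, 54.4 and 49.5 CPM. Every 24 h library lay below every untreated and every 8 h library, although replicate 1 of 24 h came within a few CPM of the lowest untreated value. The log2 fold change at 24 h against 0 h was -0.66 ± 0.21 (SE), a level 1.57-fold lower, with a Benjamini-Hochberg adjusted p of 0.0865 by edgeR's quasi-likelihood test. A block by replicate number rests on a pairing of 0 h with 24 h that was clear for replicate 1 only. Deviations from group means had an r of 0.367 for replicate 1, and of 0.164 and 0.251 for replicates 2 and 3. With this block MTHFD1L fell by 0.63 on the log2 scale (SE 0.0926, adjusted p = 0.000911, edgeR). Without untreated replicate 1 the value was -0.39, adjusted p = 0.193 (edgeR), and with the block as well it was -0.54, adjusted p = 9.5e-05 (edgeR). The fall with the block passed the threshold without each of the 9 libraries in turn.

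ALDH1L2 stood at 7.68, 12.8 and 12.7 CPM untreated, with replicate 1 well below the other two. It stood at 12.3, 12.2 and 11.7 CPM at 8 h and at 17.5, 18.3 and 16.0 CPM at 24 h. All 24 h libraries lay above all others. The log2 fold change at 24 h against 0 h was 0.64 ± 0.17 (SE), a level 1.56-fold higher, with an adjusted p of 0.0600 (edgeR). With the replicate block ALDH1L2 rose by 0.65 on the log2 scale (SE 0.15, adjusted p = 0.0116, edgeR). Without untreated replicate 1 the value was 0.42, adjusted p = 0.0715 without the block, and 0.40, adjusted p = 0.0118 with it (edgeR). The blocked call was lost without 24 h replicate 1 (adjusted p = 0.0574, edgeR) and without 24 h replicate 2 (adjusted p = 0.0503, edgeR).

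**Figure D2:**
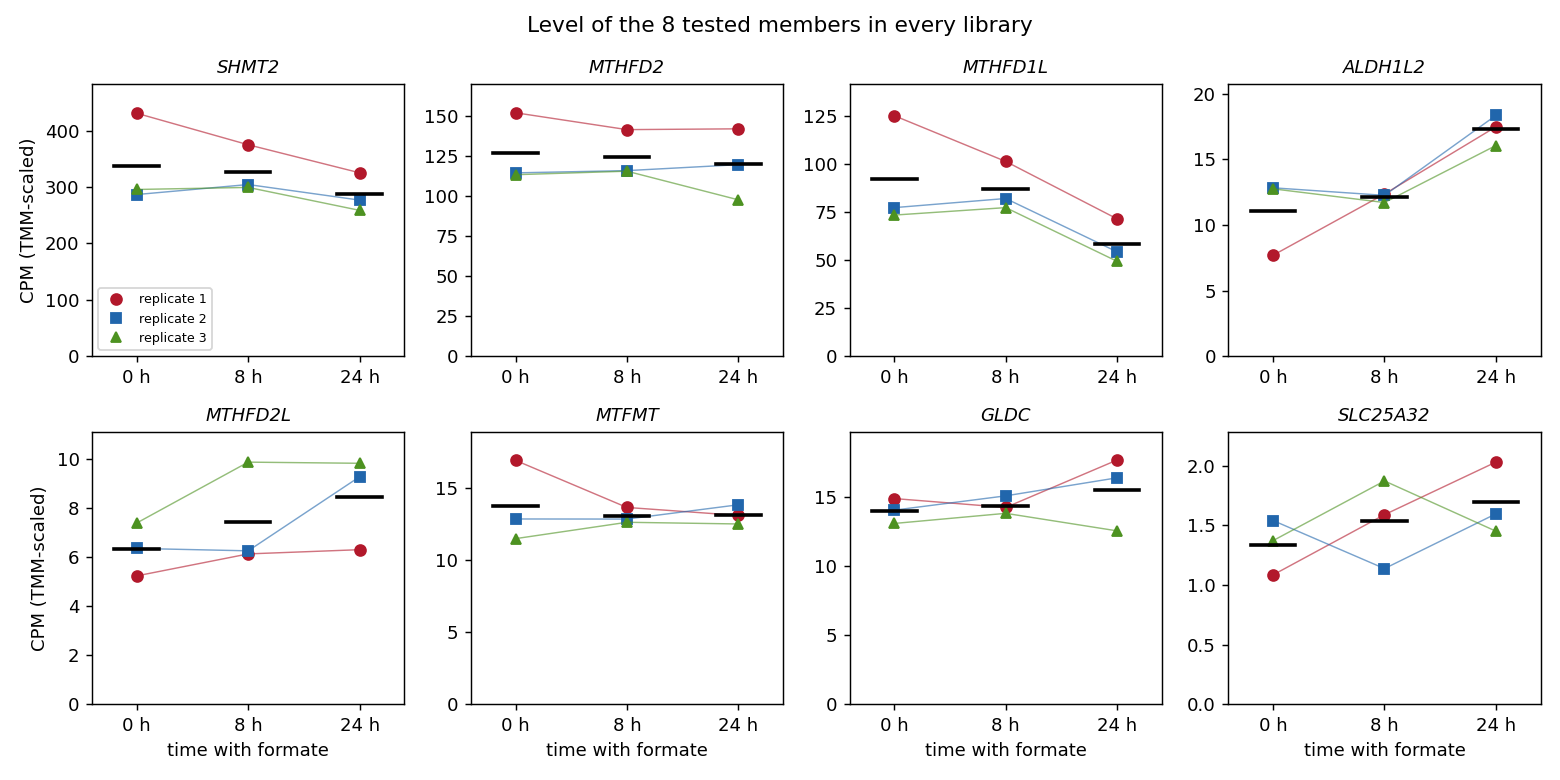
TMM-scaled CPM of the 8 tested genes in each library (points, joined by replicate number) at 0, 8 and 24 h with formate; black bars are means of 3 libraries and each axis starts at 0. At 24 h the MTHFD1L points lie at 71.6 or below and the ALDH1L2 points lie at 16.0 or above, apart from those of the other groups.

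SHMT2 and MTHFD2, which supply the formyl-folate, did not pass the test at 24 h against 0 h. SHMT2 stood at 431, 287 and 296 CPM untreated, at 375, 305 and 299 CPM at 8 h, and at 325, 277 and 259 CPM at 24 h. The 24 h library was the lower in 3 of 3 pairs, but the groups overlapped. The log2 fold change of SHMT2 was -0.24 ± 0.17 (SE), adjusted p = 0.380, and with the block -0.22, adjusted p = 0.0892 (edgeR). The SHMT2 value was -0.039 without untreated replicate 1, and -0.15 with the block as well, and without untreated replicate 2 it was -0.34. MTHFD2 stood at 152, 115 and 113 CPM untreated, at 142, 116 and 116 CPM at 8 h, and at 142, 120 and 97.7 CPM at 24 h. Its groups overlapped, and the log2 fold change of -0.08 ± 0.16 (SE) had an adjusted p of 0.769 (edgeR).

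MTHFD2L, which catalyses the same step as MTHFD2, stood at 5.23, 6.35 and 7.39 CPM untreated. It stood at 6.13, 6.25 and 9.87 CPM at 8 h and at 6.30, 9.28 and 9.82 CPM at 24 h. The 24 h library was the higher in 3 of 3 pairs with overlapping groups. The log2 fold change of MTHFD2L was 0.42 ± 0.23 (SE), adjusted p = 0.265, and with the block 0.41, adjusted p = 0.0526 (edgeR). MTFMT stood at 16.9, 12.8 and 11.5 CPM untreated and at 13.1, 13.8 and 12.5 CPM at 24 h, a log2 fold change of -0.06 ± 0.14 (SE). GLDC stood at 14.9, 14.0 and 13.1 CPM untreated and at 17.6, 16.4 and 12.5 CPM at 24 h, a log2 fold change of 0.15 ± 0.14 (SE). SLC25A32, the folate carrier, stood at 1.08, 1.54 and 1.37 CPM untreated and at 2.03, 1.60 and 1.45 CPM at 24 h, a log2 fold change of 0.34 ± 0.26 (SE). The 24 h value was the higher in 3 of 3 pairs for SLC25A32 and in 2 of 3 for GLDC. The adjusted p-values of MTFMT, GLDC and SLC25A32 were 0.801, 0.495 and 0.416 (edgeR), and their groups overlapped.

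Counted over the 8 tested members, 0 passed at 24 h against 0 h by edgeR, where 4.25% of the 15273 tested genes did. An unadjusted p under 0.05 was reached by 2 members (26.4% of all genes), and 2 did not overlap between groups (30.3% of all genes). With the replicate block 2 members passed (24.1% of all genes), 1 higher and 1 lower. DESeq2 called the same 2, MTHFD1L with an adjusted p of 0.0295 and ALDH1L2 with 0.0160 (11.0% of all genes), and limma-voom called 0 (4.37%). A share of 2 in 8, or 25.0%, was near the background of the blocked test and of the non-overlapping groups, so the count says nothing particular about these genes. Fitted values were higher for 4 members and lower for 4, with a median log2 fold change of 0.04 against 0.007 over all genes.

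**Figure D3:**
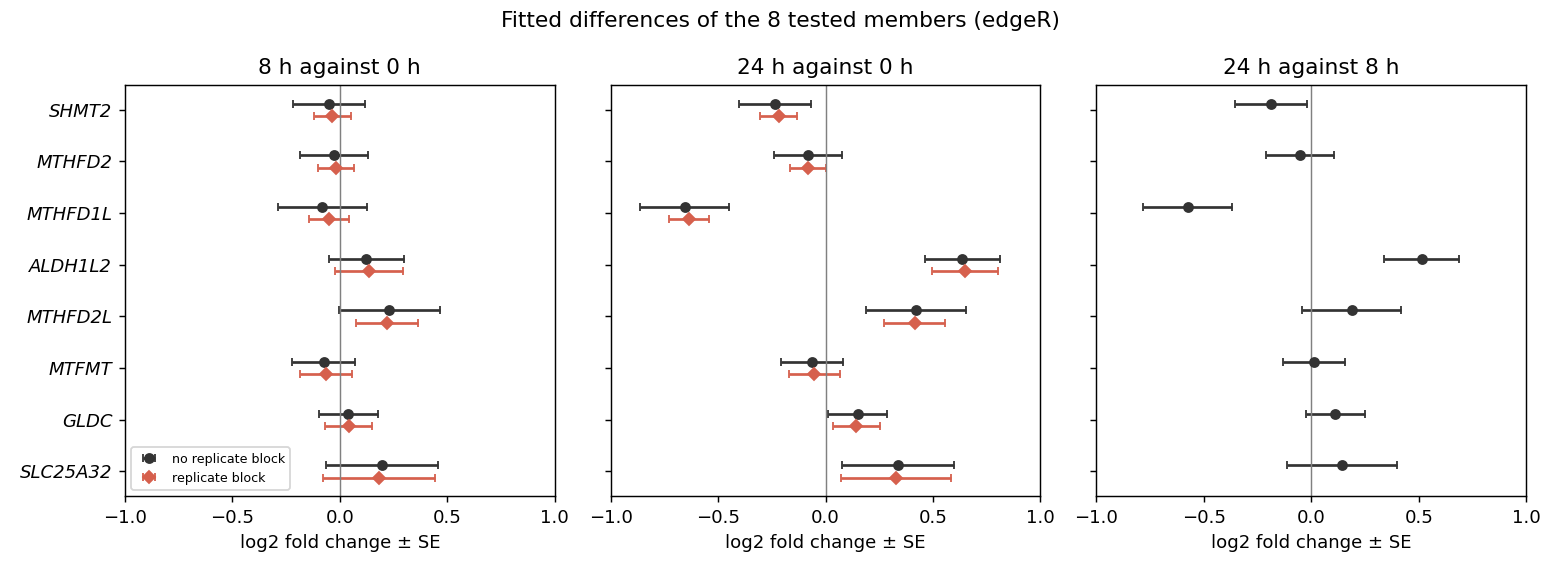
Fitted log2 fold change ± SE of the 8 tested genes in the 3 comparisons, without the replicate block (circles) and, for the comparisons with 0 h, with it (diamonds). At 24 h against 0 h MTHFD1L lies at -0.66 and ALDH1L2 at 0.64, whereas at 8 h all values lie between -0.08 and 0.23.

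No member differed detectably after 8 h. The fitted log2 fold changes at 8 h against 0 h ran from -0.08 for MTHFD1L to 0.23 for MTHFD2L, with SEs between 0.14 and 0.26 and adjusted p-values of 0.9999 (edgeR). MTFMT stood at 13.6, 12.8 and 12.6 CPM at 8 h, GLDC at 14.2, 15.0 and 13.8 CPM, and SLC25A32 at 1.59, 1.14 and 1.87 CPM. All 8 members overlapped the untreated libraries. By edgeR without or with the block, DESeq2 and limma-voom, 0 members passed, and 0% of all genes did by each of the 4. An unadjusted p under 0.05 was reached by 0 members (0.517% of all genes), and 3.31% of all genes had groups that did not overlap. The median log2 fold change of the members was 0.006, against -0.02 over all genes.

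Between 8 h and 24 h the groups of the same 2 genes did not overlap, 25% of the tested members against 34.3% of all genes. The log2 fold change of MTHFD1L was -0.57 ± 0.21 (SE), adjusted p = 0.127, and that of ALDH1L2 was 0.51 ± 0.17 (SE), adjusted p = 0.107 (edgeR). Of the 8 members, 0 passed by edgeR (4.56% of all genes), DESeq2 (10.3%) and limma-voom (4.19%). An unadjusted p under 0.05 was reached by 2 (22.8% of all genes). Without untreated replicate 1, which is in neither group but enters the filter, the scaling and the shared estimate of the spread, MTHFD1L had a log2 fold change of -0.59 with an adjusted p of 0.0169 and ALDH1L2 of 0.50 with an adjusted p of 0.00891 (edgeR). In that fit 16.3% of all genes passed. The other 6 members had fitted values between -0.19 and 0.19. A test of any difference among the 3 groups gave adjusted p-values of 0.152 for MTHFD1L and 0.0938 for ALDH1L2 (edgeR F test), and 0 of 8 members passed it, against 3.64% of all genes. With the replicate block these were 0.00132 and 0.0212 (edgeR F test), and both passed, as did 19.6% of all genes. That block also joins 8 h with 24 h, between which no pairing was taken. The comparison of 24 h with 8 h shares the 24 h libraries with that against 0 h, and its values are no independent support.

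The balance between paired enzymes was set out as ratios of CPM per kb within a library, a measure chosen after the data were seen. SHMT2 to its cytosolic counterpart SHMT1 stood at 10.8, 7.03 and 8.06 untreated, at 11.6, 7.07 and 8.14 at 8 h, and at 5.99, 5.11 and 4.63 at 24 h. All 24 h libraries lay below all others, and the mean went from 8.64 ± 1.97 to 5.24 ± 0.689 (SD, n = 3). SHMT1 itself stood at 59.8, 61.5 and 55.2 CPM untreated and at 81.8, 81.6 and 84.1 CPM at 24 h. MTHFD1L to MTHFD1, its cytosolic counterpart, which turns formate back into formyl-folate, went from 0.870 ± 0.171 untreated to 0.826 ± 0.0474 at 8 h and 0.557 ± 0.0576 at 24 h (SD, n = 3). MTHFD1 itself had a log2 fold change near 0 at 24 h, with means of 195.2 and 194.9 CPM.

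Within the mitochondrial route, MTHFD2 to MTHFD1L went from 1.45 ± 0.180 untreated to 2.12 ± 0.131 at 24 h (SD, n = 3). ALDH1L2 to MTHFD1L stood at 0.0362, 0.0977 and 0.102 untreated and at 0.144, 0.199 and 0.191 at 24 h. These could not overlap, because both genes were already separated in opposite directions, so this ratio adds no support. MTHFD2 to MTHFD2L, 42.0 ± 14.7 untreated and 30.5 ± 13.3 at 24 h (SD, n = 3), overlapped. Over 15 such tests (5 ratios in 3 comparisons), the 4 ratios with separate groups had an exact two-sided permutation p of 0.1 at 24 h against 0 h, the smallest that 3 against 3 libraries allow, and 0.1875 after Benjamini-Hochberg adjustment. None can therefore pass a threshold of 0.05. The ratios with MTHFD1L share its values and are not separate results.

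**Figure D4:**
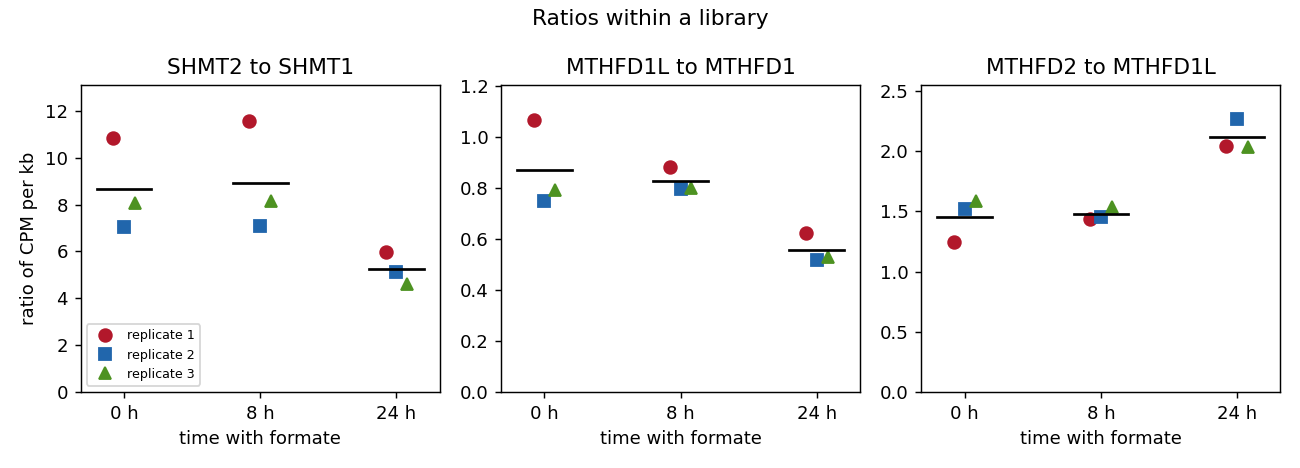
Ratios of CPM per kb within each library (points, by replicate number; bars are means of 3 libraries) at 0, 8 and 24 h with formate. At 24 h SHMT2 to SHMT1 and MTHFD1L to MTHFD1 lie below, and MTHFD2 to MTHFD1L above, all values of the other groups.

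The main enzymes shared a pattern over the replicate numbers. SHMT2, MTHFD2 and MTHFD1L were highest in replicate 1 in 3 of 3 groups, and MTHFD2L was lowest there in 3 of 3. Across the 9 libraries, log2 CPM of SHMT2 had a Pearson r of 0.904 with MTHFD2 and 0.918 with MTHFD1L, and after subtraction of the group means these were 0.933 and 0.984. MTHFD2L had an r of -0.761 with SHMT2, -0.728 with MTHFD2 and -0.798 with MTHFD1L. ALDH1L2 and MTHFD1L had an r of -0.860, or -0.676 after subtraction of the group means. These 9 points share time and replicate number, and the values describe these libraries only.

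The genes most like 3 members over the 9 libraries were sought among 10900 genes with a mean of at least 5 CPM. For SHMT2 they were PKMYT1, a kinase that restrains CDK1, PA2G4, a proliferation-associated RNA-binding protein, and TRAP1, a mitochondrial chaperone, with Pearson r of 0.996, 0.992 and 0.991. For MTHFD2 they were TOE1, a deadenylase, EZH2, a Polycomb histone methyltransferase, and NAA50, a protein acetyltransferase, with r of 0.975, 0.972 and 0.971. For ALDH1L2 they were ABCA13, a lipid transporter, PAG1, a membrane adaptor, and ATM, a kinase of the DNA damage response, with r of 0.998, 0.995 and 0.993. These are the highest of many values and are given without a test.

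The surrounding pathway was counted at 24 h against 0 h, where 4.25% of all genes passed by edgeR and 24.1% with the replicate block. Of 9 tested cytosolic folate enzymes, 1 rose and 0 fell by edgeR. SHMT1, the cytosolic serine hydroxymethyltransferase, rose 1.40-fold (log2 0.49 ± 0.11 SE, adjusted p = 0.0345, edgeR). MTRR, which reactivates methionine synthase, had a log2 fold change of 0.32 with an adjusted p of 0.111, and 0.0202 with the block (edgeR). With the replicate block 4 of the 9 rose and 1 fell. The median log2 fold change of these enzymes was 0.24.

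Of 18 mitochondrial partners (glycine cleavage and lipoylation, serine and glycine carriers, electron transfer flavoprotein, formyl-methionine processing), 1 rose and 0 fell, and with the block 1 rose and 1 fell. SARDH, sarcosine dehydrogenase, which acts after DMGDH on the same folate, had 3, 6 and 7 counts untreated, 3, 9 and 5 at 8 h, and 17, 16 and 18 at 24 h. It rose by 1.63 on the log2 scale (SE 0.40, adjusted p = 0.0442, edgeR), on few counts. SLC25A38, a glycine carrier, had a log2 fold change of -0.39 (adjusted p = 0.109, block 0.0210, edgeR). ETFB, which takes electrons from DMGDH and SARDH, had one of 0.27 (adjusted p = 0.209, block 0.133, edgeR). With the block and without untreated replicate 1 ETFB passed, with 0.39 (adjusted p = 0.0154, edgeR). It passed in no other fit that left out 1 library, without or with the block (adjusted p from 0.0970 to 0.500, edgeR). The median of the partners was -0.02.

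Of 4 tested genes of folate uptake and retention, 0 passed, 3 had an unadjusted p under 0.05 (26.4% of all genes), and 2 fell with the block (edgeR). FPGS, which retains folate by adding glutamates, stood at 49.8, 31.0 and 34.2 CPM untreated and at 28.5, 25.2 and 25.9 CPM at 24 h, a log2 fold change of -0.53 (adjusted p = 0.101, block 0.00573, edgeR). SLC19A1, the reduced folate carrier, had a log2 fold change of -0.60 with overlapping groups (adjusted p = 0.155, block 0.00232, edgeR). Without untreated replicate 1 the value of FPGS was -0.31, or -0.41 with the block (adjusted p = 0.00347, edgeR), and that of SLC19A1 was -0.27, or -0.46 with the block (adjusted p = 0.000605, edgeR). SLC46A1, the proton-coupled folate transporter, had one of 0.40 (adjusted p = 0.144, edgeR), with 61.5% of its exon bases overlapped by genes on the opposite strand. SLC19A1 has 14% of such overlap.

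Of 27 tested genes of serine synthesis and known ATF4 targets, 2 rose and 1 fell by edgeR, and with the block 7 rose and 3 fell. GDF15, a secreted stress factor, rose with a log2 fold change of 0.81 and ALDH18A1, which starts proline synthesis, with one of 0.39 (edgeR adjusted p-values of 0.0356 and 0.0376). ATF5, itself a transcription factor of this response, fell by 0.67 (adjusted p = 0.0393, edgeR), with 21.2% of its exon bases overlapped on the opposite strand. ATF4 had a log2 fold change of -0.30 (adjusted p = 0.269, edgeR), and with the block it fell by 0.30 (adjusted p = 0.0313, edgeR), lower in 3 of 3 pairs. These were -0.12 and -0.24 without untreated replicate 1. PHGDH, the first enzyme of serine synthesis, had a 1.02-fold level and PSAT1, the next, a 1.09-fold level (adjusted p = 0.866 and 0.550, edgeR). The list's median log2 fold change was 0.06.

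Of 12 mitotic genes, 0 rose and 6 fell at 24 h against 0 h by edgeR, and 8 fell with the block. CCNB1, the cyclin of entry into mitosis, fell by 0.91 on the log2 scale, CDC20, an activator of the anaphase-promoting complex, by 0.90 and PLK1, a mitotic kinase, by 0.83 (adjusted p = 0.0215, 0.0267 and 0.0267, edgeR). The summed level of the 12 was 5311, 5096 and 5181 CPM untreated, 5990, 5210 and 4920 CPM at 8 h, and 4554, 3794 and 3082 CPM at 24 h. Every 24 h library lay below every other. The part of this shift in the values of MTHFD1L and ALDH1L2 was not tested. At 8 h against 0 h, 0 genes of these lists passed, 0 of them had an unadjusted p under 0.05, and 0 passed with the block (edgeR).

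The calls of listed genes at 24 h against 0 h without the block depend on single libraries. Without 24 h replicate 2, or without 24 h replicate 3, 0 of all genes passed by edgeR. CCNB1, CDC20 and PLK1 passed without each of the other 7 libraries. Of the 9 fits that each leave out 1 library, the call was lost in 8 for GDF15, 7 for SARDH, 7 for ALDH18A1, 5 for SHMT1 and 5 for ATF5. Without untreated replicate 1 the adjusted p was 0.119 for SARDH, 0.0818 for GDF15, 0.0663 for ALDH18A1 and 0.0606 for ATF5, whereas SHMT1 still passed with 0.0498 (edgeR). With the block SHMT1, GDF15, ALDH18A1, ATF5, FPGS, SLC19A1, CCNB1, CDC20 and PLK1 passed in all 9 such fits. The blocked call was lost in 2 of the 9 for SARDH, 3 for SLC25A38, 4 for MTRR and 6 for ATF4.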

How the data were processed

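The authors deposited 1 table of raw counts for the 9 libraries and 23727 Ensembl genes. Per the labels' protocols, the RNA integrity number exceeded 9 and the mRNA library kit keeps strand. The submitters' processing notes name bcl2fastq 2.20.0.422, STAR 2.7.4a and GRCh38. The counting program, annotation release and strand setting are not given in the sources used here, which could change the counts of overlapping genes. Symbols were found for 23619 genes, and 23252 were in GENCODE release 29.

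Genes were kept with filterByExpr (15273), scaled with TMM and fitted in edgeR 4.0.16 (R 4.3.3) with 1 mean for each group, all 9 libraries sharing the estimate of the spread. The quasi-likelihood test was two-sided, with Benjamini-Hochberg adjustment over all tested genes and a threshold of 0.05. The code was tested on simulated data. DESeq2 1.42.0, limma 3.58.1, other scalings, no filter, 2 groups only, a replicate block and leaving out each library were alternatives. Leaving out a library with the block, and for listed genes, was added after seeing the data.

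Same-numbered libraries were taken as pairs from the titles and from the correlation, across genes, of deviations from group means: r was 0.414 to 0.476 between 0 h and 8 h and 0.164 to 0.367 between 0 h and 24 h. Untreated replicate 3 and 24 h replicate 2, of unlike number, had an r of 0.270. This lay above the same-numbered r of replicates 2 (0.164) and 3 (0.251), so only replicate 1 paired clearly between 0 h and 24 h. Between 8 h and 24 h the same-numbered r was 0.423 for replicate 1, 0.0367 for replicate 2 and 0.404 for replicate 3. Because of the low r of replicate 2, no pairing was taken there. The r of replicates 1 and 3 lay above every same-numbered r between 0 h and 24 h. Variation (BCV) was 0.137, or 0.0956 with the block. The members and lists were chosen with earlier results of these data known. Named genes were all members, up to 3 per list by smallest p (24 h against 0 h), and the 3 highest correlations for 3 members. A gene that met this rule is not reported here. ATF4, PHGDH, PSAT1 and MTHFD1 were named in addition, after their values were seen, as were the marker genes.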

Additional observations from a re-analysis of the deposited data

How the results depend on the processing

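The count of members past the threshold, 0 in each comparison, became 2 with the replicate block at 24 h against 0 h, at 24 h against 8 h and for any difference among the groups. For 24 h against 8 h, between which no pairing was taken, the block gave MTHFD1L an adjusted p of 0.00147 and ALDH1L2 one of 0.0356 (edgeR). It called 3130 genes in all against 696 without it. Of the 9 blocked fits that each leave out 1 library, MTHFD1L kept this call in 9. ALDH1L2 kept it in 3, those without an untreated library, and its adjusted p rose to at most 0.196 (edgeR). Against 0 h the block gave 3687 calls in place of 649. For any difference, in which MTHFD1L and ALDH1L2 passed with it, it gave 2986 in place of 556. The block changed no other call of a member. Over all genes DESeq2 called 1594 at 24 h against 0 h, 1450 at 24 h against 8 h and 1470 for any difference, the fits of 2 groups alone 124 and 1787 at 24 h against 0 h and 8 h, and the fits without 1 library from 0 to 899, 2545 and 1276. DESeq2 gave 2 members at 24 h against 0 h and 1 for any difference, and the fit of the 2 groups alone gave 2 at 24 h against 8 h. Without each library in turn, without or with the block, the count ran from 0 to 2 at 24 h against 0 h and from 0 to 3 for 24 h against 8 h and for any difference. The third was SHMT2 without untreated replicate 1, with the block. Log2 fold changes of members kept their direction and their side of the threshold in 513 of 600 recomputed values, 39 gained the threshold and 48 changed sign, none of them a called value. With other scalings MTFMT at 24 h against 8 h became -0.00827 (DESeq2) and -0.00335 (RLE). With library totals alone, with which the median of all genes was 0.08, MTFMT at 24 h against 0 h became 0.0186 and MTHFD2 at 24 h against 8 h 0.00538. Leaving out each library in turn without the block, the log2 fold changes that changed sign ran as follows at 8 h against 0 h: SHMT2 from -0.16 to 0.16, MTHFD2 from -0.12 to 0.12, MTHFD2L from -0.022 to 0.37, MTHFD1L from -0.20 to 0.20, ALDH1L2 from -0.083 to 0.24 and MTFMT from -0.17 to 0.095. At 24 h against 0 h MTHFD2 ran from -0.22 to 0.054 and MTFMT from -0.18 to 0.092. At 24 h against 8 h MTHFD2 ran from -0.20 to 0.062, SLC25A32 from -0.035 to 0.30 and MTFMT from -0.039 to 0.034. With the block and without untreated replicate 1, the values that changed sign were, at 8 h against 0 h, SHMT2 0.054, MTHFD2 0.0031, MTHFD1L 0.058, ALDH1L2 -0.093, SLC25A32 -0.027 and MTFMT 0.082, and MTFMT 0.078 at 24 h against 0 h and -0.0037 against 8 h. With the block and without untreated replicate 3 they were MTHFD2 0.015 at 8 h against 0 h and MTFMT -0.0020 at 24 h against 8 h. With the block and without 24 h replicate 1 MTFMT was 0.048 against 0 h and SLC25A32 -0.058 against 8 h, without 24 h replicate 2 MTFMT was -0.061 against 8 h, and without 24 h replicate 3 MTHFD2 was 0.0050 and MTFMT -0.032 against 8 h. With the block and without 8 h replicate 1 SHMT2 was 0.0084, MTHFD2 0.023 and MTHFD1L 0.040 at 8 h against 0 h, and MTFMT -0.047 at 24 h against 8 h. With the block, SLC25A32 was -0.066 at 24 h against 8 h without 8 h replicate 2, and at 8 h against 0 h without 8 h replicate 3 SLC25A32 was -0.025 and GLDC -0.015. Without or with the block, MTHFD1L at 24 h against 0 h stayed between -0.83 and -0.39 and ALDH1L2 between 0.40 and 0.80. The cause of each change was not tested. Few counts and the exon overlap with a gene on the same strand limit SLC25A32, and AMT and DMGDH had no test.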
